A study of Homo sapiens with 3 samples.

Results

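The mitochondrial calcium uniporter genes were followed in 3 RNA sequencing libraries of DU145 cells, an established human line from a metastasis of prostate carcinoma. The family was chosen by measured values of these libraries: SMDT1 was picked for its high FPKM in 1 of them, and its complex partners were listed beside it by symbol, matched through the Ensembl gene ID. Of the 6 genes listed, 5 were measured (SMDT1, MCU, MCUB, MICU2 and MCUR1), out of 23379 genes in all, and MICU3 was not analysed here. All 5 had a mean of at least 1 FPKM over the libraries, as did 10639 genes of the whole table. The levels and differences of SMDT1 are therefore a description.

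There was 1 library in each of 3 groups. P-Enter was the negative control, WT came from cells made to overexpress wild-type BRAF, and L597R from cells given plasmids for the L597R mutant of that kinase. How long the cells carried the plasmids, the promoter that drove them and whether clones or pools were used are not given in the sources used here. Values were FPKM, reads scaled to the exon length of the gene and to the counted reads of the library. Levels of different genes are set side by side on that scale. The exon length of a gene may differ from the length of the transcripts expressed, which was not measured. Whole reads could be worked out from these values, and the libraries held 13294004 (P-Enter), 15665132 (WT) and 16603676 (L597R) of them. With a lone library a group there is no replicate error, no test and no p-value; the exact 95% intervals given here cover counting error only, and amplified copies are not independent molecules. In bulk RNA, fewer cells expressing a gene and less of its RNA per cell cannot be told apart.

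BRAF, the check of the labels, was at 1.65, 4.41 and 9.59 FPKM in the P-Enter, WT and L597R libraries. Its reads, scaled to the totals, were 2.18 times as many in L597R as in WT (2.05 to 2.31). The mutation and the amount of BRAF RNA therefore cannot be told apart in L597R against WT. Of the markers of cell types, KRT18 (34.3 to 37.6 FPKM) and VIM (127 to 132 FPKM) were well above 1 FPKM in every library, while KRT8 stayed between 0.534 and 0.623 FPKM. CDH1, the cadherin of epithelia, was at 1 read in P-Enter and at 0 in the other libraries. KRT19 was at 0.0966 FPKM or less in every library. Of the 4 measured epithelial markers KRT18 alone was at 1 FPKM or more. All 4 mesenchymal markers (VIM, CDH2, FN1 and ZEB1) were at 1 FPKM or more in every library. The identity of the line is therefore taken from its label. Every measured marker of blood, endothelium and fibroblasts was under 1 FPKM in all libraries.

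The uniporter is the channel through which calcium enters the mitochondrial matrix, driven by the membrane potential of the inner membrane. MCU forms the pore, and MCUB is its paralog that can join the pore and lowers its conductance. EMRE, the small membrane protein encoded by SMDT1, is needed in animal cells for the pore to conduct and ties it to calcium-sensing EF-hand proteins, MICU2 and MICU3 among them, which keep the channel shut at resting calcium. MCUR1 is an inner membrane protein described as a scaffold for assembly of the complex. Calcium that enters this way activates dehydrogenases of the matrix, and an overload opens the permeability transition pore.

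SMDT1 and MICU2 were the members whose levels differed most between libraries, and the sequence around their transcription starts is shown for that reason. The windows are those of RefSeq on GRCh38.p14, which held all 5 members. The stretch before SMDT1, chr22:42079450-42079690 on the plus strand, ends where the GENCODE 29 gene body begins. It is given 5′ to 3′, with capitals on the overlapping matches, on either strand, to the letters TCGCGAG:
SMDT1: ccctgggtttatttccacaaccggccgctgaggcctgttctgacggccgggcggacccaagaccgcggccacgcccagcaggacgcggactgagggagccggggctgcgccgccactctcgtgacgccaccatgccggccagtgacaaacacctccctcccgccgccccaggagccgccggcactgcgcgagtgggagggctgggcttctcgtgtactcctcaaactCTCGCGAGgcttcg
The same letters stood 48 bases before the RefSeq start of MICU2 and 22 bases before that of SMDT1, in these stretches of 27 bases (chr22:42079668-42079694 on the plus strand and chr13:21604202-21604228 on the minus strand), with the 7 matching letters in capitals:
SMDT1: cctcaaactcTCGCGAGgcttcgggcg
MICU2: ctgtcggatgTCGCGAGagttcccaag
For MICU2 the letters lie before the RefSeq start but run across the GENCODE 29 start of the gene, at 21604214.

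The motif was chosen after these sequences had been seen. It occurred, on either strand, in the 250 bases before the start of 2 of the 5 members, in 2.01% of 27305 genes' windows and in 4.45% of the 7805 windows of protein-coding genes with a mean of at least 1 FPKM. The letters CCGGAAG, a core read by ETS factors, were in none of the 5 windows (0 members; 18.5% of the windows of those protein-coding genes). CCAAT, the box bound by NF-Y, was in 1 member's window, that of MCU, against 36.2% of the windows of those genes. These are matches of letters, and no binding was measured. The window of SMDT1 had a GC content of 70.0% with 27 CpG dinucleotides, and that of MICU2 had 62.8% with 22. The median over the same protein-coding genes was 65.2% and 22.

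SMDT1, which encodes EMRE, had the lowest level of the measured members in every library and was higher in WT than in P-Enter. The gene (ENSG00000183172) lies on chromosome 22 from 42079691 to 42084284 on the plus strand of GRCh38, with 1731 bases of exon, the length used in the deposited FPKM. Its level was 0.9995, 3.02 and 1.77 FPKM in the P-Enter, WT and L597R libraries, from 23, 82 and 51 reads. WT was the highest and P-Enter the lowest, and the counting intervals of P-Enter (0.634 to 1.5) and WT (2.41 to 3.75) did not overlap. That of L597R (1.32 to 2.33) overlapped with P-Enter and lay below that of WT.

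WT had 3.03 times the SMDT1 reads of P-Enter after scaling to the totals (1.89 to 5.04). The same read ratio was 1.77 between L597R and P-Enter (1.06 to 3.04), and between L597R and WT it was 0.587 (0.405 to 0.842). All 3 intervals left out 1. On the log2(FPKM + 1) scale the differences were 1.01, 0.47 and -0.54; this scale understates the change of a low gene such as SMDT1. A gene passed the size rule when that difference was at least 1 in either direction and its mean was at least 1 FPKM. SMDT1 passed it for WT against P-Enter by 0.01, and among 9358 protein-coding genes 1, BRAF, had a higher difference. That count is upward only. Genes lower in WT were left out of it, and ATP5IF1 (-1.47) and NDUFA6 (-1.07) differed by more than SMDT1. Over all 10639 genes with a mean of at least 1 FPKM, non-coding ones included, 104 passed the size rule in this comparison in either direction. The rank of SMDT1 here follows from its choice for a high value in WT and is a description. For L597R against P-Enter 243 protein-coding genes had a higher difference than SMDT1, again counted upward only.

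**Figure D1:**
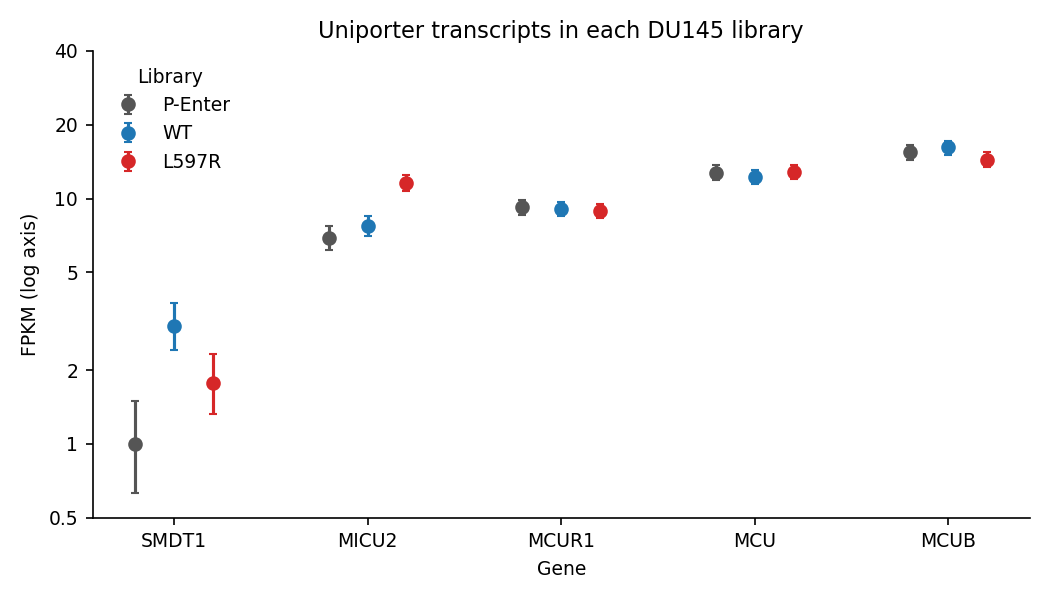
FPKM (log axis) of the 5 measured uniporter genes in the P-Enter, WT and L597R libraries; points are the deposited values and bars exact 95% intervals of counting error. SMDT1 lies between 0.9995 and 3.02 FPKM, below every other gene shown, and MICU2 stands higher in L597R (11.6 FPKM) than in the other libraries.

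The pore genes MCU and MCUB were near the same level in the 3 libraries. MCU (ENSG00000156026, chromosome 10 from 72692131 to 72887694, plus strand), the pore-forming subunit, was at 12.7, 12.2 and 12.9 FPKM in the P-Enter, WT and L597R libraries. Its read ratios were 0.959 (0.869 to 1.06) for WT and 1.01 (0.917 to 1.11) for L597R, each set against P-Enter, and 1.05 (0.959 to 1.15) between L597R and WT. All 3 intervals held 1, and together they span 0.869 to 1.15.

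MCUB (ENSG00000005059, chromosome 4 from 109560205 to 109688726, plus strand), the paralog of MCU, was at 15.4, 16.1 and 14.4 FPKM in the P-Enter, WT and L597R libraries. Its interval left out 1 in L597R against WT, at a read ratio of 0.892 (0.811 to 0.981). Against P-Enter the ratios were 1.05 (0.948 to 1.16) in WT and 0.934 (0.845 to 1.03) in L597R. MCUB overlaps the neighbouring gene CASP6 by 105 bp on the opposite strand, and 56 of 3555 windows of 50 bases (1.57%) in its transcripts also occur, reversed, in those of CASP6. CASP6 was at 14.5, 16.3 and 17.1 FPKM in P-Enter, WT and L597R.

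MICU2, an EF-hand regulator of the pore, was higher in L597R than in both other libraries, short of the size rule. The gene (ENSG00000165487) occupies chromosome 13, 21492691 to 21604214, minus strand; 30 of 3779 windows of 50 bases in its transcripts (0.794%), and 124 of 6148 in those of MCUR1 (2.02%), also occur on the same strand in transcripts of other genes. It was at 6.91, 7.72 and 11.6 FPKM in the P-Enter, WT and L597R libraries, from 332, 437 and 695 reads. The L597R library stood apart, with a counting interval of 10.7 to 12.5 FPKM, while those of P-Enter (6.19 to 7.70) and WT (7.02 to 8.48) overlapped.

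The L597R library had 1.68 times (1.47 to 1.92) the scaled MICU2 reads of P-Enter and 1.5 times (1.33 to 1.7) those of WT, while the ratio between WT and P-Enter was 1.12 (0.966 to 1.29). Its log2(FPKM + 1) difference of 0.67 in L597R against P-Enter was exceeded by 16 of 9358 protein-coding genes, counted upward only. Genes lower in L597R, such as ACTN4 (-0.92), were left out of that count. Differences between these libraries followed GC content across those genes (Spearman -0.69 in L597R against P-Enter, -0.45 in WT against P-Enter, -0.59 in L597R against WT; genes share their library and are not replicates). The longest transcript of MICU2 had a GC content of 39.3%, and 15.0% of the genes had a lower one. A regression on GC content, exon length and expression was added after the trend had been seen. It gave MICU2 a fitted difference of 0.22 and left 0.45 in L597R against P-Enter. A higher remainder, counted upward only, was left for 58 genes. For SMDT1, at 49.2% GC, the regression left 1.06 in WT against P-Enter, with 0 of 9358 genes above it. In L597R against P-Enter the regression left 0.53, with 30 genes above it. SMDT1 was chosen for its high value in WT, so its place among the remainders there follows from that choice and is a description.

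**Figure D2:**
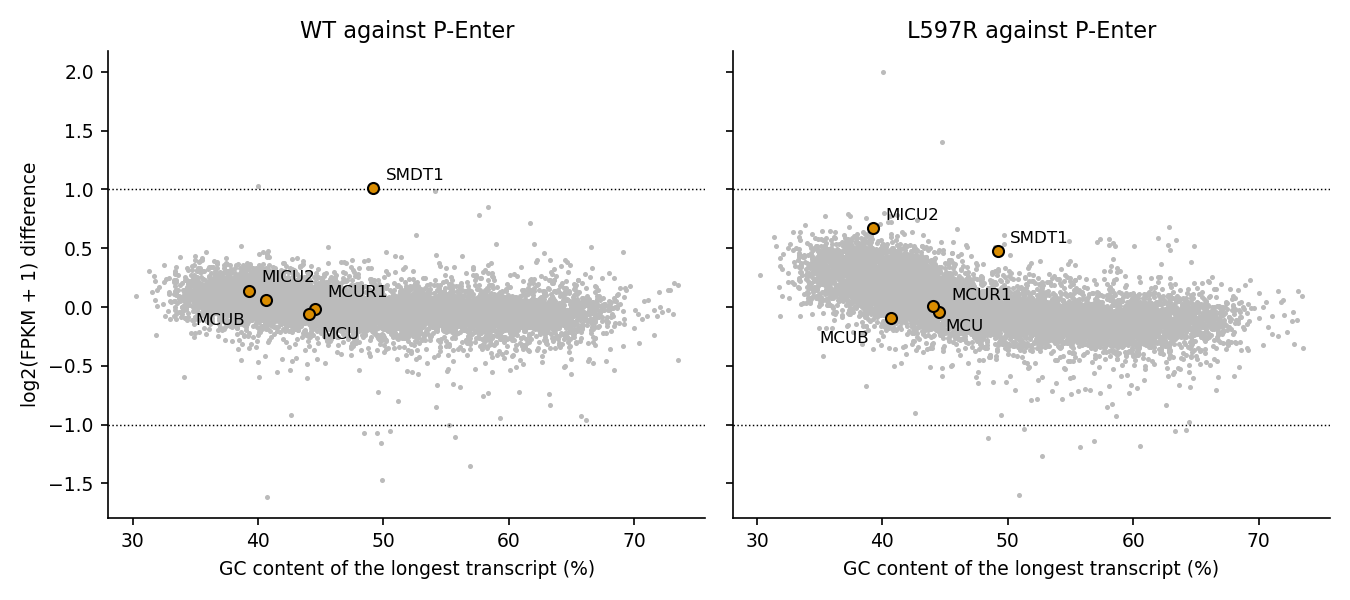
Difference in log2(FPKM + 1) against the GC content of the longest transcript (%), for 9358 protein-coding genes (grey) and the 5 uniporter genes (orange), in WT against P-Enter and L597R against P-Enter; dotted lines mark differences of 1 and -1. The grey points slope downwards with GC content, more in L597R, where MICU2 (0.67) and SMDT1 (0.47) lie at the upper edge; MCU, MCUB and MCUR1 lie close to 0.

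MCUR1 (ENSG00000050393, chromosome 6 from 13786557 to 13814568, minus strand), the assembly factor, was at 9.21, 9.07 and 8.91 FPKM in the P-Enter, WT and L597R libraries. These values were close together, and its read ratios against P-Enter were 0.985 for WT (0.892 to 1.09) and 0.967 for L597R (0.876 to 1.07).

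Counted over the family, 1 of 5 members passed the size rule in WT against P-Enter, where 0.978% of the 10639 genes did, and this is the contrast that chose SMDT1. In L597R against P-Enter it was 0 of 5 (0.808% of all genes), and in L597R against WT 0 of 5 (0.724%). With recovered reads and an interval lying wholly beyond 1.5-fold the members' counts were 1, 0 and 0, beside 0.32%, 0.499% and 0.358% of 10625 genes. An interval leaving out 1 was found for 1, 2 and 3 of the 5 members, and for 26.1%, 49.4% and 38.4% of those genes. With 5 genes, the last shares lie near those of all genes. The median difference of the 5 members was 0.06, 0.01 and -0.02 on the log2(FPKM + 1) scale, against 0.00, -0.01 and 0.01 over all genes.

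**Figure D3:**
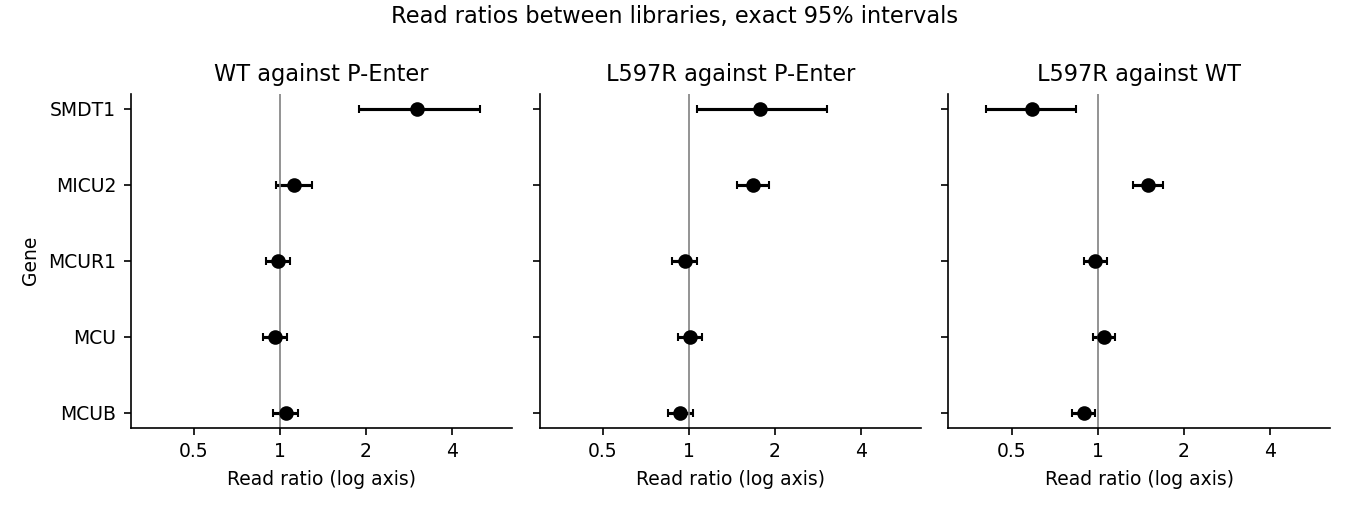
Read ratios (log axis) of the 5 uniporter genes in the 3 comparisons, with exact 95% intervals of counting error; the grey line marks a ratio of 1. SMDT1 lies to the right of 1 in WT (3.03) and L597R (1.77) against P-Enter and to its left in L597R against WT (0.587), MICU2 lies to the right in L597R against P-Enter (1.68) and WT (1.5), and the other genes lie close to 1.

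Within a library, the members kept a wide range of levels per length. In P-Enter the order was MCUB, MCU, MCUR1, MICU2 and SMDT1, from 15.4 to 0.9995 FPKM, and it was the same in WT. In L597R MICU2 stood above MCUR1, at 11.6 against 8.91 FPKM. The level intervals of neighbours in the order did not overlap in P-Enter; in WT those of MCUR1 (8.48 to 9.70) and MICU2 (7.02 to 8.48) met at their ends, and in L597R those of MCU (12.1 to 13.7) overlapped with MCUB (13.5 to 15.4) and with MICU2 (10.7 to 12.5).

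Relative to the FPKM of MCU, SMDT1 was the lowest member and MCUB the highest. The FPKM of SMDT1 divided by that of MCU was 0.0784 (0.0494 to 0.119) in P-Enter, then 0.247 (0.195 to 0.311) in WT, and 0.138 (0.102 to 0.183) in L597R. For MCUB this ratio was 1.21, 1.32 and 1.12, and for MCUR1 0.723, 0.742 and 0.693. MICU2 had a ratio to MCU of 0.542 (0.475 to 0.618) in P-Enter, then 0.632 (0.562 to 0.710) in WT, and was nearest to 1 in L597R, at 0.901 (0.816 to 0.994).

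The difference of SMDT1 was set directly against that of each partner, as a ratio of read ratios with an exact conditional interval. For WT against P-Enter it was 3.15 (1.94 to 5.30) relative to MCU, 2.89 (1.78 to 4.86) relative to MCUB, 2.71 (1.65 to 4.61) relative to MICU2 and 3.07 (1.89 to 5.17) relative to MCUR1. SMDT1 was chosen by its level in WT and its partners were not, so these ratios describe that choice and support nothing further. For L597R against P-Enter SMDT1 and MICU2 differed from P-Enter by like amounts (1.06, 0.623 to 1.85), an interval that allows a difference of either sign. MICU2 relative to MCU was 1.66 (1.41 to 1.96) between L597R and P-Enter, and 1.43 (1.22 to 1.66) between L597R and WT.

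The gene beside SMDT1 had the opposite difference. NDUFA6, an accessory subunit of respiratory complex I, sits on the minus strand of chromosome 22 (42085525 to 42090955), so the 2 genes point towards each other with 1240 bp between their ends. It was at 1.79, 0.332 and 1.08 FPKM in the P-Enter, WT and L597R libraries, from 32, 7 and 24 reads. WT was the lowest where it was the highest for SMDT1. Its read ratio was 0.186 (0.0692 to 0.428) between WT and P-Enter, a log2(FPKM + 1) difference of -1.07 that passed the size rule. It was 0.601 (0.339 to 1.05) between L597R and P-Enter, and 3.24 (1.35 to 8.89) between L597R and WT.

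Reads of both genes were added together after these values had been seen. The sum was 4.14 CPM (reads scaled to the library total, 3.12 to 5.39) in P-Enter, then 5.68 (4.56 to 6.99) in WT, with 4.52 (3.55 to 5.66) in L597R, and its ratio for WT against P-Enter was 1.37 (0.970 to 1.96). Of the summed reads SMDT1 held 41.8% in P-Enter (exact interval 28.7 to 55.9), 92.1% in WT (84.5 to 96.8) and 68.0% in L597R (56.2 to 78.3). Since the genes were added for their opposite differences, a sum nearer to 1 than either gene was fixed by that choice and is a description. SMDT1 relative to NDUFA6 had a ratio of read ratios of 16.3 (5.94 to 48.5) for WT against P-Enter. That ratio far from 1 was likewise fixed by the choice of the pair and is a description. It rests on 7 reads of NDUFA6 in WT and 23 of SMDT1 in P-Enter. The annotated bodies of the 2 genes do not overlap, and 0 of the 1730 windows of 50 bases in SMDT1 transcripts, and 0 of 1366 in those of NDUFA6, occur on either strand in transcripts of another gene of GENCODE 29. The strand setting of the authors' counting is not given in the sources used here, and its part in these values was not tested.

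Of the 6 measured genes within 50 kb of SMDT1, 2 had a mean of at least 1 FPKM, and the rest could not have passed the size rule. NDUFA6 was the 1 of those 2 past it, in WT against P-Enter, where 0.978% of all genes passed. NDUFA6-DT, divergent from NDUFA6, had 9, 6 and 17 reads in P-Enter, WT and L597R, CYP2D6 had 2, 4 and 3, and PHETA2, which ends 249 bp before SMDT1, and ENSG00000270083 each had 0, 1 and 0. Of the measured neighbours within 50 kb of the other members, those with a mean of at least 1 FPKM, which the size rule asks for, were 3 of 6 for MCUB, 2 of 2 for MICU2, 0 of 3 for MCU and 0 of 1 for MCUR1. None of the 3 beside MCUB and the 2 beside MICU2 passed the rule in any comparison, and the neighbours of MCU and MCUR1 could not have passed it.

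**Figure D4:**
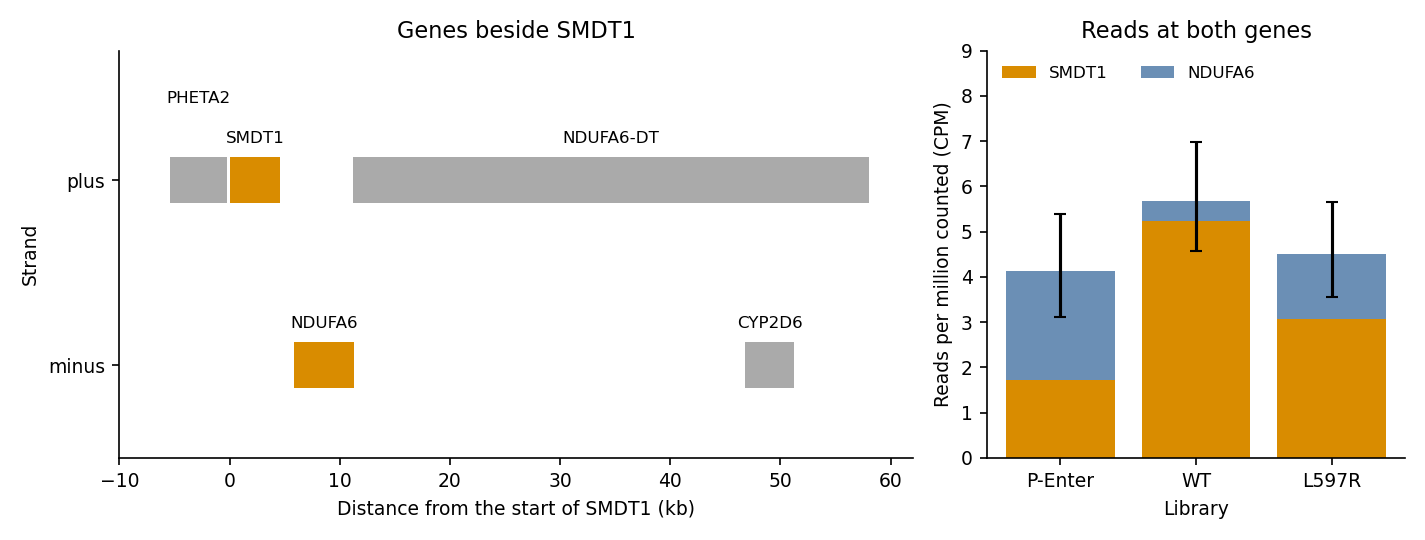
Left, the genes named beside SMDT1 by strand and distance from its start (kb), with SMDT1 and NDUFA6 in orange; right, CPM of SMDT1 (orange) and NDUFA6 (blue) stacked for each library, with exact 95% intervals of the sum. The sum lies between 4.14 and 5.68 CPM, while the SMDT1 share goes from 41.8% in P-Enter to 92.1% in WT.

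Protein-coding genes whose pattern over the 3 libraries was most like that of SMDT1 were ranked by the distance between their pairs of log2(FPKM + 1) differences from P-Enter. The nearest was SCAMP3, a carrier protein of post-Golgi membranes, at a distance of 0.28, with levels of 1.48, 3.27 and 2.07 FPKM in the P-Enter, WT and L597R libraries. SPATA25 (0.45), MRPS12, a protein of the small mitochondrial ribosomal subunit (0.48), EMC9, a subunit of the endoplasmic reticulum membrane complex (0.49), and MIEF2, an adaptor of mitochondrial fission (0.50), came next. All 5 had a mean between 1.25 and 2.87 FPKM. None had a difference in WT as large as that of SMDT1, which BRAF alone exceeded among the protein-coding genes. That follows from the choice of SMDT1 for its high value in WT and is a description. MRPS12 went from 1.03 FPKM in P-Enter to 2.66 in WT and 1.06 in L597R. Unlike SMDT1, EMC9 was highest in L597R, at 1.94, 3.25 and 3.41 FPKM in P-Enter, WT and L597R. SPATA25 had 8, 23 and 12 reads in the same order.

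Genes that mature, degrade or surround EMRE were measured by a list of 6: MAIP1 and the proteases AFG3L2, SPG7 and YME1L1, with the prohibitins PHB1 and PHB2. None passed the size rule in any comparison (0 of 6). With 0.978%, 0.808% and 0.724% of all genes past it in WT against P-Enter, L597R against P-Enter and L597R against WT, a count of 0 in this list and in the next 3 lies near the background. The list medians were -0.04 in WT and -0.09 in L597R against P-Enter, and -0.06 in L597R against WT. YME1L1, the inner membrane protease that faces the intermembrane space, was at 25.4, 28.9 and 32.4 FPKM in the P-Enter, WT and L597R libraries (read ratio 1.27, 1.21 to 1.34, for L597R against P-Enter). MAIP1, which shields newly imported EMRE, was at 14.1, 13.4 and 15.4 FPKM in the same order, with intervals that held 1 in all comparisons. The scaffold protein genes PHB1 (52.6, 50.6 and 46.1 FPKM) and PHB2 (69.1, 69.0 and 62.8 FPKM) were lowest in L597R, at read ratios of 0.876 (0.837 to 0.917) and 0.909 (0.870 to 0.949) against P-Enter. In that comparison the interval lay above 1 for 1 and below 1 for 3 of the 6, where 49.4% of all genes had an interval leaving out 1.

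Other genes of mitochondrial calcium transport held 12 members with a mean of at least 1 FPKM, of 13 measured. Again none passed the size rule (0 of 12), with medians of -0.05, -0.09 and -0.04 in the order WT against P-Enter, L597R against P-Enter and L597R against WT. In L597R against P-Enter 4 of the 12 had an interval leaving out 1, all of them below it, where 49.4% of all genes had such an interval. The outer membrane channel VDAC1 was at 243, 240 and 233 FPKM in the P-Enter, WT and L597R libraries, and VDAC2 at 76.6, 76.9 and 76.2. GHITM, described as a proton and calcium exchanger, was at 78.1, 74.9 and 76.7 FPKM, and PPIF, the cyclophilin D of the permeability transition pore, at 46.7, 45.8 and 45.0. SLC8B1, the sodium-calcium exchanger that empties the matrix, was named after its values were seen, as the gene with the lowest difference of the list in both comparisons with P-Enter. It was at 2.98, 2.32 and 2.20 FPKM in the P-Enter, WT and L597R libraries, with read ratios of 0.779 (0.653 to 0.930) and 0.738 (0.618 to 0.880).

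Enzymes and carriers of the matrix and inner membrane that answer to calcium were 12, and 0 of 12 passed the size rule in any comparison (medians -0.03, -0.06 and -0.02). The subunits IDH3B and PDHA1 of isocitrate and pyruvate dehydrogenase were at 76.2 and 25.8 FPKM in P-Enter, with read ratios in L597R against P-Enter of 0.870 (0.825 to 0.918) and 0.927 (0.866 to 0.993). OGDH, of the oxoglutarate dehydrogenase complex, was at 40.9, 39.1 and 37.8 FPKM, and the aspartate-glutamate carrier SLC25A13 at 28.5, 28.2 and 29. PDP1, the phosphatase that turns pyruvate dehydrogenase on, had the highest difference of the list in both comparisons with P-Enter, at 6.74, 8.35 and 9.05 FPKM in the P-Enter, WT and L597R libraries (read ratios 1.24, 1.11 to 1.39, and 1.34, 1.2 to 1.5, against P-Enter), and was named after its values were seen.

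On the side of the endoplasmic reticulum, 16 of 20 measured genes had a mean of at least 1 FPKM and 0 of 16 passed the size rule (medians -0.01, -0.07 and -0.04). TMBIM6 was at 139, 133 and 129 FPKM in the P-Enter, WT and L597R libraries, and ITPR3, the most abundant of the inositol trisphosphate receptors here, at 51.6, 50.1 and 49.1. HSPA9, the matrix chaperone that also tethers these receptors to VDAC1, was at 111, 110 and 120 FPKM. In L597R against P-Enter the interval lay above 1 for 3 and below 1 for 8 of the 16, where 49.4% of all genes had an interval leaving out 1. In WT against P-Enter it lay above 1 for 0 and below 1 for 1 of the 16, beside 26.1% of all genes.

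**Figure D5:**
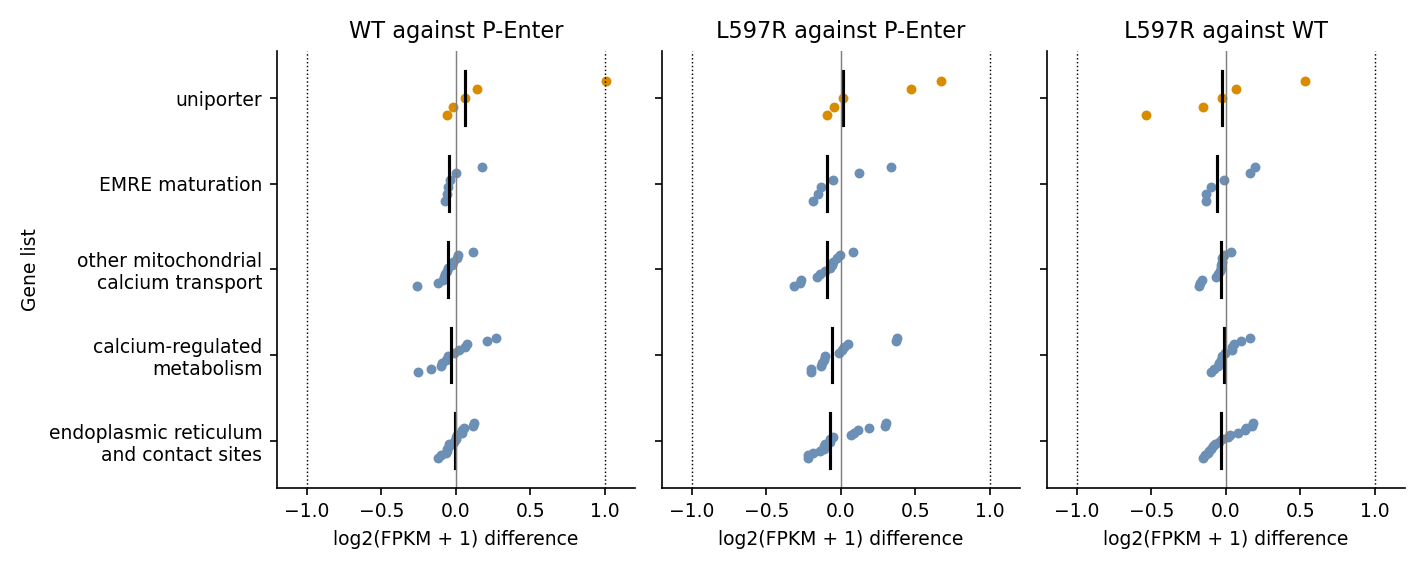
Differences in log2(FPKM + 1) of the members with a mean of at least 1 FPKM of the uniporter (orange) and of 4 other calcium lists (blue) in the 3 comparisons; black bars are list medians and dotted lines the size rule at -1 and 1. SMDT1 in WT against P-Enter (1.01) is the point that reaches a dotted line, and the other lists lie between -0.32 and 0.38.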

How the data were processed

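RNA had been extracted with Trizol and made into stranded mRNA libraries, per the labels' protocols, and the submitters' processing notes name HISAT2, HTSeq, Cufflinks and Trimmomatic with the builds hg38 and GRCh38. Their versions, the annotation and the strand setting are not given in the sources used here. The values deposited by the authors are FPKM, 1 for each Ensembl ID, per the file headers. Symbols were matched for 23330 of 23379 genes, and positions and exon lengths came from GENCODE 29 for 22807.

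Library totals and gene lengths that give whole reads in all 3 libraries (tolerance 1e-05; wider, in proportion to the reads, for very high genes) were searched for. Reads were recovered for 23347 genes (99.9%), 47.5% of them at exactly the annotated exon length, and summed to 100.6% of each total, an excess whose cause was not tested. This recovery and the size rule were tested on simulated data. Intervals are exact Clopper-Pearson 95% intervals conditional on the sum of both counts; those of levels are exact Poisson intervals.

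The size rule was a log2(FPKM + 1) difference of at least 1 with a mean of at least 1 FPKM. The members, lists and tests were chosen with earlier results of these data known. Named were the members, genes within 50 kb of SMDT1, the 4 most abundant members of each list and the 5 genes most like SMDT1; other names were added after values were seen, and some genes under this rule are not reported here. Alternatives were other pseudocounts, filters, thresholds and scalings, recovered reads and a regression with cubic terms in log exon length, GC content and log mean FPKM. Promoter windows came from RefSeq. Computations used scipy 1.17.1, pandas 2.3.3 and numpy 2.4.6 under Python 3.11.15, with matplotlib 3.10.9 for plots.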

Additional observations from a re-analysis of the deposited data

How the results depend on the processing

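The difference of SMDT1 for WT against P-Enter (1.01) was 0.42 with a pseudocount of 5 and 1.60 as a log2 read ratio, and stayed above 0 under every alternative run. SMDT1 passed the size rule with a pseudocount of 0.1, without a filter and with both rescalings, but the count of members past the rule was 0, not 1, with a pseudocount of 5, at a mean of at least 5 FPKM (which leaves SMDT1 out) and at a fold of 4. For L597R against P-Enter 1 member, MICU2, passed at a fold of 1.5, and the share of all genes past that fold was not computed. In this comparison the 95th percentile of the difference over the 10639 genes was 0.43. The difference of MICU2 there (0.67) was 0.48 with a pseudocount of 5 and 0.45 after the regression on GC content, length and expression, and that of MCUB (-0.09) was -0.27 after the regression. No count of the 4 other lists changed from 0 under any of the 9 alternatives run in each of the 3 comparisons. Rescaling by the median ratio used factors of 1.005, 0.998 and 0.9998. No paired analysis was possible because each group has 1 library, and none could be left out. At 23 reads in P-Enter and 7 of NDUFA6 in WT, counting error alone spans several fold, and variation between cultures is unknown.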
